A study of Mus musculus with 6 samples.

Results

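The genes described here encode transporters and channels that move chloride, sodium, potassium and bicarbonate across the intestinal epithelium. All 9 listed genes were found by symbol among the 21397 genes of the expression table, and all 9 reached the level needed for testing. Of these, 5 serve chloride secretion (Cftr, Slc12a2, Kcnn4, Kcne3 and Kcnq1) and 4 serve sodium and chloride absorption (Slc26a3, Slc26a6, Slc9a2 and Slc9a3). They were measured in small intestinal organoids grown from crypts of Fpr2 f/f mice, which carry floxed Fpr2 alleles on a C57BL/6J background and, in this experiment, no stated Cre. For 5 days the cultures received either MMK-1 at 1 μmol/L, a synthetic peptide that activates the receptor FPR2, or its vehicle, DMSO at 0.1%. There were 3 libraries per group and 6 in all, and each sample is described as organoids of 3 mice. The study's methods give an age of 8 to 12 weeks for mice of all its experiments. Labels of the MMK-1 group put the dose in millimolar units, and the micromolar dose is that of the protocol text. The labels do not say whether libraries with the same replicate number came from the same mice, and p-values measure the spread between these libraries only.

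Fluid secretion in the crypt begins with chloride entry across the basolateral membrane through the cotransporter NKCC1, encoded by Slc12a2, and ends with chloride exit across the apical membrane through the channel CFTR. Basolateral potassium channels, KCNQ1 with its subunit KCNE3 and the calcium-activated KCNN4, return potassium to the outside and keep the voltage that drives chloride out. On the villus and surface, electroneutral absorption pairs apical sodium/proton exchangers, NHE3 (Slc9a3) and NHE2 (Slc9a2), with apical chloride/bicarbonate exchangers, DRA (Slc26a3) and PAT1 (Slc26a6).

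Values are FPKM, fragments scaled by gene length in kilobases and by the total fragments of the library, as deposited. The libraries held 35512739 to 37537463 fragments, and single members had 74 to 21745 fragments in a library. MMK-1 replicate 3 stood apart from the other MMK-1 libraries. Against them its fragments differed by a chi-square of 36.6 and 31.3 per degree of freedom, while the other pairs within a group gave 2.84 to 4.97, where 1 would be counting noise alone. Among the 9 members, MMK-1 replicate 3 had the lowest value of its group in 3 and the highest in 5. Differences were tested with limma on log2(FPKM + 1) over the 10551 genes whose mean FPKM reached 1, and adjusted p-values are Benjamini-Hochberg values over all of these genes. On this scale, the change of a gene with low FPKM comes out smaller than its plain ratio. Over all genes tested, the log2 fold change had a median of 0.13. This median was 0.06 with upper-quartile scaling and 0.0015 in limma-voom with TMM scaling. The shift thus depends on the scaling and matters most for small changes. Changes below are given without subtracting it unless stated.

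With MMK-1, all 5 secretion genes rose, 3 of the 4 absorption genes fell, and Slc9a2 rose. In counts, 6 of the 9 members were higher and 3 were lower by the limma test (adjusted p not above 0.05). Over all genes tested, 48.5% were higher and 24.7% were lower by the same rule, so passing it is common in these libraries. The split of all genes moved with the scaling, from 5118 higher and 2606 lower here to 4395 and 3291 with upper-quartile scaling and 3725 and 3855 in limma-voom, while the 9 members kept their directions under both. On the log2(FPKM + 1) scale, a rise of at least 2-fold with an unadjusted p of at most 0.05 was seen in 4 of the 9 members, namely Kcnn4, Slc12a2, Slc9a2 and Kcne3, against 3.39% of all genes tested. A fall of that size was seen in 0 members, against 3.65% of all genes, and all 3 lower members passed the p threshold without the fold. The groups did not overlap in all 9 members, as in 76.8% of all genes tested. The median log2 fold change was 1.09 over the secretion genes, with a range from 0.50 to 1.97, and -0.39 over the absorption genes, with a range from -0.73 to 1.21. The exact two-sided permutation p of each member was 0.1, the smallest that 3 libraries against 3 can give.

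Markers of several cell types of the organoids also differed between the groups. All 10 enterocyte markers were lower with MMK-1, and their summed level was 6327 to 6360 FPKM in controls and 2909 to 3048 with MMK-1. All 8 markers of crypt stem and cycling cells were higher, with sums of 186.6 to 188.2 and 532.9 to 543.3 FPKM. All 5 Paneth markers were higher, with sums of 389.3 to 429.7 and 1266 to 1387 FPKM. Of the 6 goblet markers, 4 were higher and 2 lower, with sums of 1375 to 1441 and 1401 to 1527 FPKM. Of the 5 enteroendocrine markers, 3 were higher and 2 did not pass, with sums of 178.1 to 191.4 and 239 to 259.3 FPKM. The 5 tuft cell markers, of which 0 reached the level for testing, summed to 1.14 to 1.23 and 1.65 to 1.87 FPKM. Among 5 general epithelial markers, 2 were higher, 2 were lower and 1 did not pass, and their sum was 2719 to 2744 FPKM in controls and 2071 to 2240 with MMK-1. Epcam, the marker that did not pass, was at 391.7 ± 1.79 FPKM in controls and 390.8 ± 20.9 with MMK-1 (SD, n = 3 each). In bulk samples, fewer cells of a type and less RNA per cell cannot be told apart, and the part of these cell types in the changes of the 9 genes was not tested.

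Markers of immune and mesenchymal cells, which lie outside the epithelium, were low. The 5 immune markers found summed to at most 1.04 FPKM, none of them was at 0 in all libraries, and Ptprc was at 0.00757 FPKM in controls and 0.00311 with MMK-1. The 7 mesenchymal markers summed to 5.76 to 6.23 FPKM in controls and 3.62 to 5.20 with MMK-1, of which Vim held 4.83 and 3.94, and none was at 0 in all libraries. Epcam, Vim and Ptprc were named after their values were seen.

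**Figure D1:**
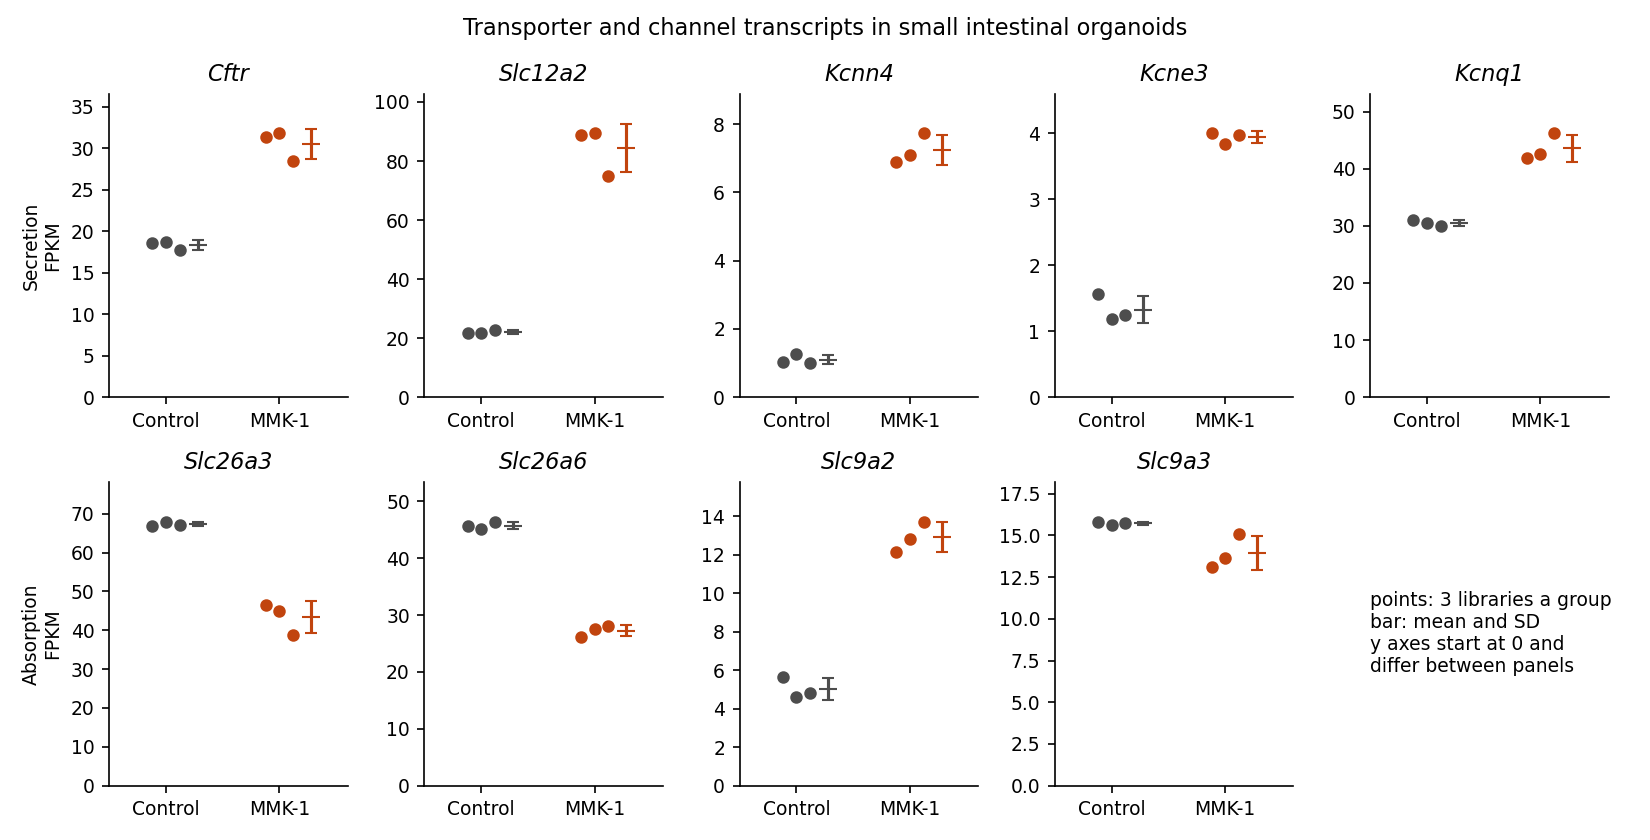
FPKM of the 9 genes in each of the 6 libraries, with secretion genes in the upper row and absorption genes in the lower row. Points are libraries, bars are the mean and SD of 3 libraries, and each y axis starts at 0; the 2 groups are apart in every panel, with the narrowest gap for Slc9a3.

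By GENCODE vM21 on GRCm38, 8 members whose place is given here lie on the plus strand. These are Cftr at chr6:18170687-18322768, Kcnn4 at chr7:24370263-24386690, Kcne3 at chr7:100176502-100184869, Kcnq1 at chr7:143106362-143427042, Slc26a3 at chr12:31390871-31473917, Slc26a6 at chr9:108853283-108913049, Slc9a2 at chr1:40680574-40769273 and Slc9a3 at chr13:74121457-74169442.

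Slc12a2 (NCBI gene 20496), the basolateral chloride loader, was among the members that changed most. Its FPKM was 21.6, 21.9 and 22.8 in controls and 88.9, 89.5 and 74.9 with MMK-1. The lowest MMK-1 value, that of replicate 3, was still far above the highest control value. The mean went from 22.1 ± 0.629 (SD, n = 3) to 84.4 ± 8.23 (SD, n = 3), a ratio of 3.82. The log2 fold change was 1.88 with a standard error of 0.0686 and a limma adjusted p of 6.9e-08, and it lay between 1.84 and 1.96 with each library left out in turn.

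Cftr (NCBI gene 12638), the apical chloride channel, rose by less. Its FPKM was 18.6, 18.8 and 17.7 in controls and 31.4, 31.8 and 28.5 with MMK-1. The means were 18.3 ± 0.551 and 30.6 ± 1.80 (SD, n = 3 each), a ratio of 1.67. The log2 fold change was 0.71 with a standard error of 0.0523 and a limma adjusted p of 4.3e-06, and it was 0.57 when the median of all genes was subtracted. Within libraries, the FPKM of Slc12a2 was 1.17 to 1.29 times that of Cftr in the control libraries and 2.63 to 2.84 times that of Cftr in the MMK-1 libraries. Such a ratio is taken within a library and does not depend on the scaling between libraries.

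The 3 potassium channel genes rose by different amounts. Kcnn4 (NCBI gene 16534), the calcium-activated channel, was low in controls, with an FPKM of 1.04, 1.26 and 1.00 from 77, 93 and 74 fragments. It was 6.89, 7.11 and 7.74 in the MMK-1 libraries, from 483, 504 and 567 fragments. All MMK-1 libraries were above all controls, with means of 1.10 ± 0.136 and 7.25 ± 0.438 (SD, n = 3 each). This 6.59-fold ratio of the means was the largest among the 9 members, and the log2 fold change on the FPKM + 1 scale was 1.97 with a standard error of 0.0670 and a limma adjusted p of 4.9e-08. With a pseudocount of 0.1 in place of 1, the log2 fold change of Kcnn4 was 2.62.

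Kcnq1 (NCBI gene 16535), the pore-forming channel, was the most abundant of the 3. Its FPKM was 31.1, 30.5 and 30.0 in controls and 41.9, 42.5 and 46.2 with MMK-1. The means were 30.5 ± 0.525 and 43.5 ± 2.34 (SD, n = 3 each), a ratio of 1.43, and the groups were apart. The log2 fold change of Kcnq1 was 0.50 with a standard error of 0.0474 and a limma adjusted p of 2e-05, the smallest rise among the members. It was 0.36 when the median of all genes was subtracted. Kcnq1ot1, an antisense RNA of this locus, was at most 0.00234 FPKM in any library, and whether the counting used strand is not given in the sources used here.

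Kcne3 (NCBI gene 57442), the subunit that keeps KCNQ1 open at resting voltage, had an FPKM of 1.56, 1.18 and 1.24 in controls, from 186, 141 and 148 fragments. It had 4.0, 3.84 and 3.98 with MMK-1, from 453, 440 and 471 fragments. The groups were apart, with means of 1.33 ± 0.203 and 3.94 ± 0.0862 (SD, n = 3 each). The ratio of the means was 2.97 and the log2 fold change was 1.09 with a standard error of 0.0705 and a limma adjusted p of 1.9e-06. The FPKM of Kcne3 was 0.0387 to 0.0501 of that of Kcnq1 in controls and 0.0860 to 0.0954 of it with MMK-1, and these ratios did not overlap. They rest on the authors' gene lengths, and with GENCODE vM21 transcript lengths they were 0.1602 to 0.2077 and 0.357 to 0.395. The length scales all libraries alike and does not enter the fold change of the ratio. Kcne3 rose more than the channel gene whose product its protein joins. Kcnn4 over Kcnq1 went from 0.0334 to 0.0412 in controls to between 0.164 and 0.167 with MMK-1, or from 0.0570 to 0.0703 to between 0.2803 and 0.2853 with the GENCODE lengths.

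Both chloride/bicarbonate exchangers fell. Slc26a3 (NCBI gene 13487), which encodes DRA, had the highest FPKM of all members in controls, with 66.9, 68.0 and 67.1. It had 46.5, 44.9 and 38.9 with MMK-1, and replicate 3 was the lowest. The means were 67.3 ± 0.555 and 43.4 ± 4.04 (SD, n = 3 each), and the log2 fold change was -0.62 with a standard error of 0.0637 and a limma adjusted p of 3e-05.

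Slc26a6 (NCBI gene 171429), which encodes PAT1, had an FPKM of 45.7, 45.2 and 46.5 in controls and 26.2, 27.5 and 28.1 with MMK-1. Every MMK-1 library was below every control library, with means of 45.8 ± 0.650 and 27.2 ± 0.982 (SD, n = 3 each). The log2 fold change was -0.73 with a standard error of 0.0418 and a limma adjusted p of 9.4e-07. The ratio of Slc26a3 to Slc26a6 was 1.44 to 1.51 in controls and 1.38 to 1.78 with MMK-1, and these ranges overlapped. The single libraries thus did not separate the exchangers by the size of their fall, which does not show that they fell alike.

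The 2 sodium/proton exchangers changed in opposite directions. Slc9a2 (NCBI gene 226999), which encodes NHE2, had an FPKM of 5.64, 4.58 and 4.82 in controls and 12.2, 12.8 and 13.7 with MMK-1. Its means were 5.02 ± 0.554 and 12.9 ± 0.780 (SD, n = 3 each), a ratio of 2.57, and its log2 fold change was 1.21 with a standard error of 0.0734 and a limma adjusted p of 1.3e-06. Slc9a3 (NCBI gene 105243), which encodes NHE3, the main sodium absorber of the villus, had 15.8, 15.6 and 15.7 in controls and 13.1, 13.7 and 15.1 with MMK-1. The third MMK-1 library lay close to the controls, while the other two were lower, and the means were 15.7 ± 0.106 and 13.9 ± 0.998 (SD, n = 3 each).

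The log2 fold change of Slc9a3 was -0.16 (95% interval -0.29 to -0.04, adjusted p = 0.022 in the limma test), the smallest change among the members. In this fit it was past the threshold only by a small margin, and it was -0.30 when the median of all genes was subtracted. The scaling moved this margin. The log2 fold change was -0.24 with upper-quartile scaling (limma adjusted p = 0.0021) and -0.33 in limma-voom (adjusted p = 0.00024). With TPM it was -0.15 (limma adjusted p = 0.043), and without the filter the limma adjusted p was 0.045. The adjusted p was 0.056 to 0.076 when any library other than MMK-1 replicate 3 was left out, and 0.00061 without MMK-1 replicate 3, with a log2 fold change of -0.22. Across 12 alternative settings it stayed below 0, from -0.33 to -0.13. The FPKM of Slc9a2 was 0.293 to 0.356 of that of Slc9a3 in controls and 0.911 to 0.939 of it with MMK-1. With the GENCODE lengths these ratios were 0.166 to 0.202 and 0.515 to 0.531, so how near the levels came to each other depends on the length used.

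Without MMK-1 replicate 3, the counts of members were again 6 higher and 3 lower, and 4 rose at least 2-fold. In that fit the log2 fold changes of the secretion genes were 0.75 for Cftr, 1.96 for Slc12a2, 1.93 for Kcnn4, 1.08 for Kcne3 and 0.46 for Kcnq1. Those of the absorption genes were -0.55 for Slc26a3, -0.75 for Slc26a6, 1.17 for Slc9a2 and -0.22 for Slc9a3.

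**Figure D2:**
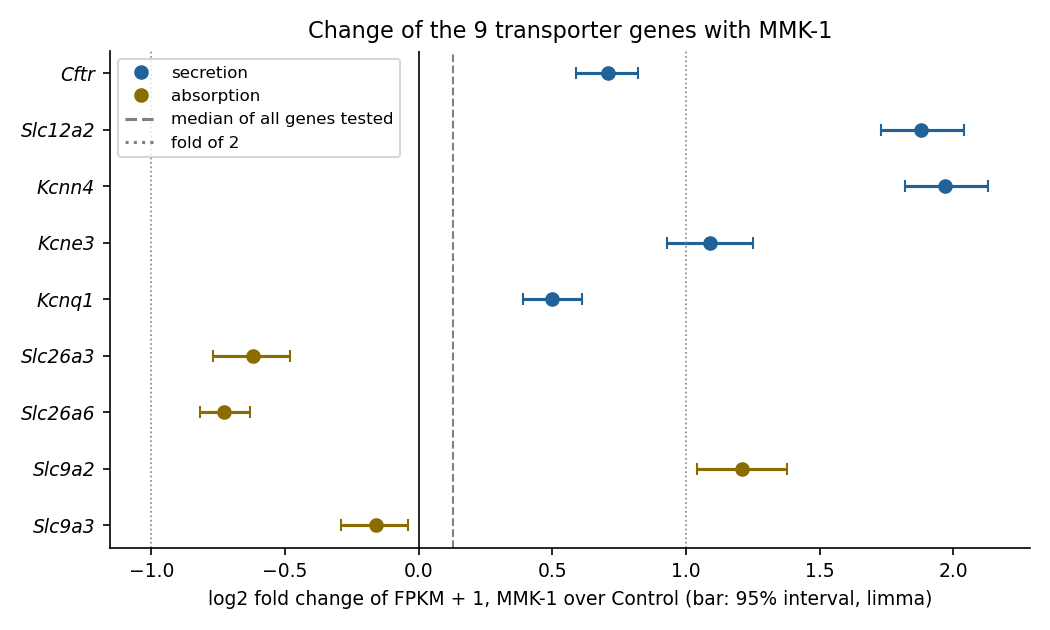
Log2 fold change of FPKM + 1 (x axis, MMK-1 over control) of each of the 9 genes, with 95% intervals from limma. All 5 secretion genes lie to the right of the dashed median of all genes at 0.13, and among the absorption genes only Slc9a2, at 1.21, does.

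**Figure D3:**
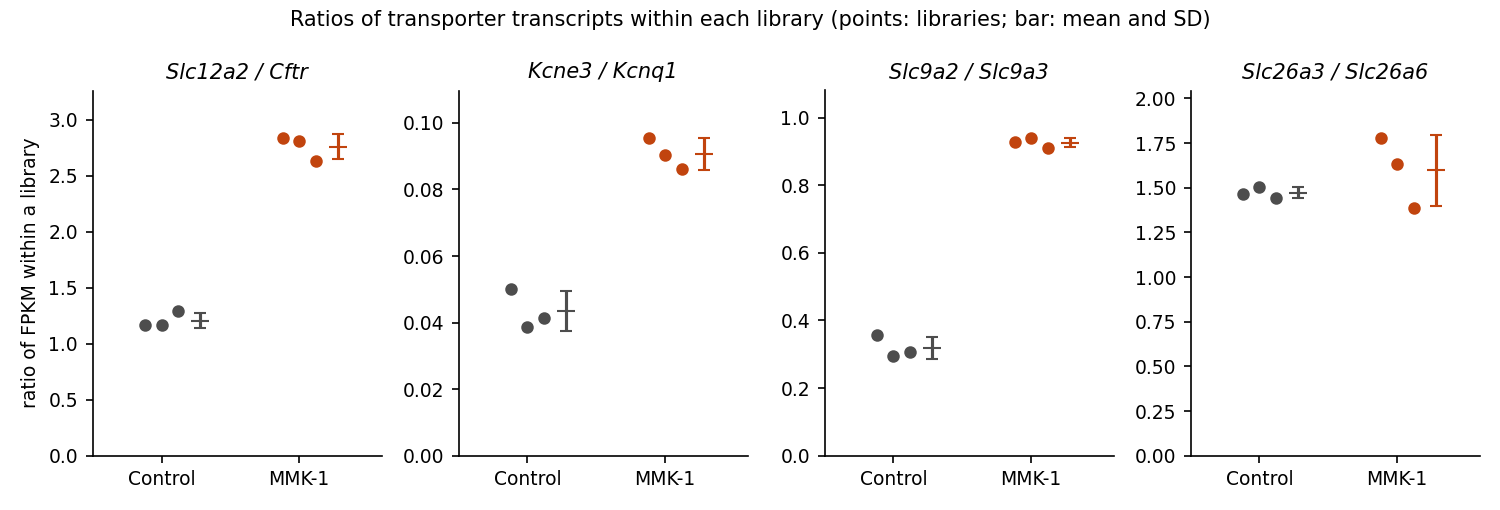
Ratios of FPKM, at the authors' gene lengths, between pairs of members within each library; points are libraries and bars are the mean and SD of 3. Slc12a2 over Cftr, Kcne3 over Kcnq1 and Slc9a2 over Slc9a3 were higher in every MMK-1 library than in every control library, while Slc26a3 over Slc26a6 overlapped.

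FPKM is scaled by gene length, so levels of different members can be set in order. In controls the order of mean FPKM was Slc26a3, Slc26a6, Kcnq1, Slc12a2, Cftr, Slc9a3, Slc9a2, Kcne3 and Kcnn4, and of these neighbours only Kcne3 and Kcnn4 had ranges that overlapped. With MMK-1 it was Slc12a2, Kcnq1, Slc26a3, Cftr, Slc26a6, Slc9a3, Slc9a2, Kcnn4 and Kcne3. Kcnq1 and Slc26a3 overlapped there, as did Slc9a3 and Slc9a2. Slc26a3 was thus first without MMK-1 and Slc12a2 was first with it. The summed FPKM of the secretion genes was 0.543 to 0.551 of that of the absorption genes in controls and 1.69 to 1.77 times it with MMK-1, and Slc12a2 held the largest share of the secretion sum with MMK-1.

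The order rests on the gene lengths that the authors used, as computed from the FPKM steps. For Cftr this length was 6305 bases, close to the 6303 of its longest protein-coding transcript in GENCODE vM21. For Kcnq1 it was 1762 against 3029 bases, for Slc26a3 1636 against 2908, and for Kcne3 3189 against 1323. For Slc9a2 it was 3493 against 5019, and for Slc9a3 6298 against 5118. With the GENCODE lengths, chosen as an alternative after seeing the data, Slc26a3 was still first in controls, at 37.9 FPKM, and Slc12a2 first with MMK-1, at 87.6. Kcnq1 moved from rank 3 to rank 6 in controls, at 17.8 FPKM, and Kcne3 from rank 9 to rank 7 with MMK-1, at 9.49. The summed FPKM of the secretion genes over that of the absorption genes was then 0.656 to 0.667 in controls and 2.11 to 2.33 with MMK-1. The lengths do not enter the ratio between the groups for a gene on the plain FPKM scale, while the difference in FPKM does depend on them.

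Promoter windows are shown for 4 members, those with a place given here, a single entry in the RefSeq table and no exon on the window. They were not chosen by direction of change. Of them, Cftr and Kcnn4 rose and Slc26a3 and Slc9a3 fell, Slc9a3 with a log2 fold change of only -0.16. Each window covers the bases from 250 to 11 before the transcription start in the RefSeq table for GRCm38.p6, 5′ to 3′ on the plus strand. They lie at chr6:18170437-18170676 for Cftr, chr7:24370013-24370252 for Kcnn4, chr12:31437969-31438208 for Slc26a3 and chr13:74121163-74121402 for Slc9a3. None of them overlaps an exon of GENCODE vM21. The Slc26a3 window lies inside the bounds of the GENCODE gene, which start further upstream. In all, 6 of the 9 members have an entry in the table. Capitals mark matches to a GC box.
Cftr: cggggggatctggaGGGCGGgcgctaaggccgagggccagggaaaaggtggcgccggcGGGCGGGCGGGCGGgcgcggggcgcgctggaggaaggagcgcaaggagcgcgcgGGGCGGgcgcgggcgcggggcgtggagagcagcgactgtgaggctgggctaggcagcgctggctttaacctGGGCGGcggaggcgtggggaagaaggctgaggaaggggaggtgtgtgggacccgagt
Kcnn4: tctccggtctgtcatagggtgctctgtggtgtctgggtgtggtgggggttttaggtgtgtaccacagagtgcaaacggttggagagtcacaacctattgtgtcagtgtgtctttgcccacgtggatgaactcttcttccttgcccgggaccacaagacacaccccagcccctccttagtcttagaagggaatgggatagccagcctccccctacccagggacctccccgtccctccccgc
Slc26a3: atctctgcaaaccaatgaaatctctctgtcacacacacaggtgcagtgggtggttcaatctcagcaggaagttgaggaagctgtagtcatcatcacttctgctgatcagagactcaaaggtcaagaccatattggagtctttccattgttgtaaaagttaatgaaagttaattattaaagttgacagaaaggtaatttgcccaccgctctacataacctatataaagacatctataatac
Slc9a3: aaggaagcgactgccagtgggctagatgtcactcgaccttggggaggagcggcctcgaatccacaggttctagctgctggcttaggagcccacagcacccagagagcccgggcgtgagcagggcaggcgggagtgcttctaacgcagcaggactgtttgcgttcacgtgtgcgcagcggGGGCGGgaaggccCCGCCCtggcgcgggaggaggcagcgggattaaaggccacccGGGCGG

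The GC content of the window was 75.8% for Cftr, 67.1% for Slc9a3, 57.9% for Kcnn4 and 38.8% for Slc26a3, where the median of 32851 windows of this length was 52.1%. Matches to the GC box GGGCGG on either strand were found 6 times in Cftr, with overlapping matches counted, 3 times in Slc9a3 and 0 times in Kcnn4 and Slc26a3. Of all windows, 31.3% held it. Motifs of 6 other factors, again searched on both strands, were in 0 of the 4 windows.

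The motif of AP-1, the factor of immediate early signalling, was searched as TGANTCA, which 6.58% of all windows held. That of CRE, the element bound after cyclic AMP signals, was searched as TGACNTCA and was in 7.17% of windows. For TCF/LEF, the factors of Wnt signalling, the letters CTTTGAT were in 3.1% of windows.

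For CDX, the intestinal homeobox factors, the letters TTTATG were in 10.5% of windows. For HNF4, a nuclear receptor of enterocytes, the letters CAAAGTNCA were in 1.14% of windows. For the GATA factors, the letters AGATAA were in 9.74% of windows. The 2 genes that rose therefore shared no match to any of the 7 motifs, and neither did the 2 that fell.

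The members were set beside 80 other genes of ion and water transport, listed by role. The table held 74 of them, of which 50 passed the minimum mean FPKM for testing and 24 did not. Of the 50, 17 were higher (34%, against 48.5% of all genes), 26 were lower (52%, against 24.7%) and 7 did not pass. Their median log2 fold change was -0.16. In limma-voom, 12 of them were higher and 31 lower by adjusted p, against 3725 and 3855 of all genes. At 2-fold in the main fit, 2 of the 50 were up (4%, against 3.39% of all genes) and 9 were down (18%, against 3.65%).

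The other chloride channel genes did not move together. Clca3b rose from 22.7 ± 0.440 to 105.4 ± 4.90 FPKM (SD, n = 3 each), a log2 fold change of 2.16 (limma, adjusted p = 3.8e-09). Clca4b fell from 577 ± 21.1 to 231.9 ± 6.46 FPKM, a log2 fold change of -1.31. CLCA proteins are secreted or membrane-bound regulators of chloride conductance and mucus, and their genes are close paralogs, so that reads may have been split between them. Clcn2, a voltage-gated chloride channel, fell from 43.6 ± 1.44 to 18.7 ± 1.38 FPKM, a log2 fold change of -1.18. Of 5 tested genes, 2 were higher and 3 were lower, and 1 of the higher calls, Clca1 (log2 fold change 0.21, limma adjusted p = 0.011), did not pass in limma-voom (adjusted p = 0.11).

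Most genes of NHE3 cofactors and scaffolds fell. Of 8 tested genes for other exchangers, cofactors and scaffolds, 7 were lower, 0 were higher and 1 did not pass. Of all genes tested, 24.7% were lower. Chp2, a calcineurin B-like cofactor of sodium/proton exchangers, fell from 65.1 ± 1.84 to 15.6 ± 1.09 FPKM (SD, n = 3 each), a log2 fold change of -2.0. Nherf1, a scaffold of the apical membrane that also binds CFTR, fell from 161.1 ± 5.18 to 80.7 ± 2.56 FPKM, a log2 fold change of -0.99. Slc9a3 itself had a log2 fold change of -0.16, as given above.

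Guanylin and uroguanylin are peptides that stimulate CFTR through cyclic GMP, and both their genes and that of their receptor fell. Guca2a, which encodes guanylin, fell from 408.1 ± 6.61 to 189.2 ± 7.48 FPKM, and Guca2b, which encodes uroguanylin, from 672 ± 10.9 to 316.6 ± 20.4 (SD, n = 3 each), with log2 fold changes of -1.11 and -1.09. Their receptor gene Gucy2c had a log2 fold change of -1.07 (limma, adjusted p = 1.8e-07). The kinase gene Prkg2 had a log2 fold change of -0.12 (adjusted p = 0.071 in the limma test, 0.0016 to 0.036 under the 3 alternatives in which it passed). Among other receptor genes, Ptger4, for prostaglandin E2, rose by 0.56 on the log2 scale, and Vipr1, for vasoactive intestinal peptide, fell from 15.4 ± 0.184 to 7.22 ± 0.607 FPKM (SD, n = 3 each, limma adjusted p = 1e-06). Gucy2c, Prkg2 and Vipr1 were chosen for mention after their values were seen. Of 10 tested genes in this group, 3 were higher, 5 were lower and 2 did not pass. Of all genes tested, 48.5% were higher and 24.7% were lower.

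The sodium pump, which supplies the gradient for both directions of transport, had both higher and lower subunit genes. Atp1b1 fell by 0.20 on the log2 scale, and Atp1b3, at a lower FPKM, rose by 0.76. Of the kinases that regulate NKCC1, 4 of 5 tested were higher and 0 were lower, where 48.5% of all genes were higher. The log2 fold change was 0.37 for Wnk1, 0.34 for Stk39, which encodes SPAK, 0.20 for Oxsr1 and 0.19 for Wnk2, the last 2 of which lie near the median of 0.13 over all genes. Oxsr1 and Wnk2 were named after their values were seen.

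Bicarbonate genes were mixed, with 2 higher, 2 lower and 1 not past the threshold among 5 tested. Of the 2 higher calls, Slc4a2, an anion exchanger, had a log2 fold change of 0.23 and did not pass in limma-voom, where it was 0.09 (adjusted p = 0.061). Slc4a7, a sodium-bicarbonate cotransporter, rose by 0.77 on the log2 scale, and Car13, a cytosolic carbonic anhydrase, had a log2 fold change of -0.83. Of 6 tested genes of the epithelial sodium channel and its control, 5 were lower and 1 was higher, where 24.7% of all genes were lower. The aldosterone-induced kinase gene Sgk1 fell from 4.56 ± 0.112 to 0.981 ± 0.171 FPKM (SD, n = 3 each). Its log2 fold change was -1.49, and -2.39 in limma-voom. The higher gene, Prss8, was the most abundant of the list and rose from 39.9 ± 0.803 to 58.2 ± 2.60 FPKM. The summed level of the list was 56.6 to 57.0 FPKM in controls and 64.3 to 69.2 with MMK-1. Potassium channel genes outside the members were higher in 2 of 3 tested, where 48.5% of all genes were higher, and Kcnk1 rose by 1.11 on the log2 scale. Among 4 tested aquaporins, Aqp4 rose from 5.90 ± 0.159 to 11.5 ± 1.44 FPKM and Aqp3 fell from 4.68 ± 0.263 to 0.359 ± 0.126 FPKM (SD, n = 3 each).

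**Figure D4:**
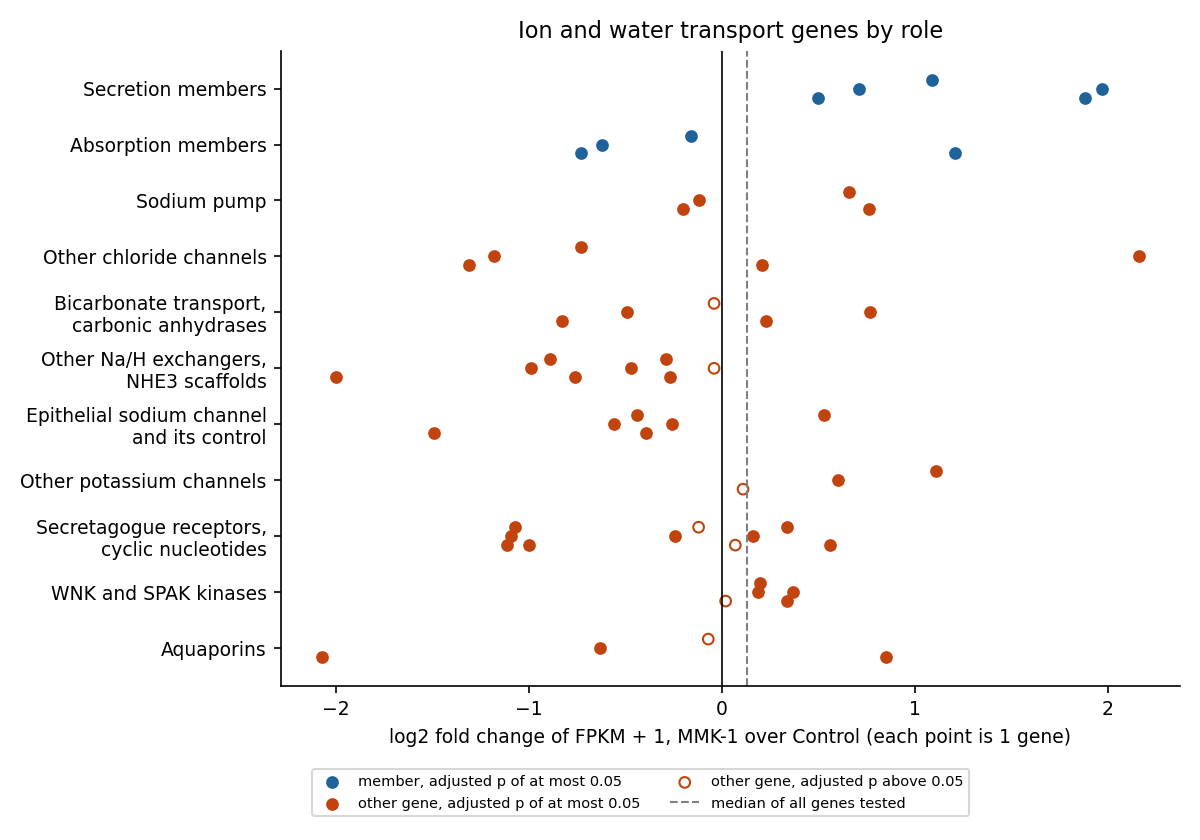
Log2 fold change of FPKM + 1 (x axis) of each tested gene, by role (rows). Filled points passed an adjusted p of 0.05 and open points did not; the row of exchanger cofactors and scaffolds lies below 0, while the secretion members all lie above it.

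Genes whose profiles over the 6 libraries were most like those of 2 members were found by the root mean square difference of log2(FPKM + 1) after subtracting each gene's mean. For Cftr these were Klf10, Top1 and Utrn, with differences of 0.0220, 0.0221 and 0.0229 and log2 fold changes of 0.69, 0.70 and 0.70. For Slc9a3 they were Grhpr, Acad8 and Suclg2, with differences of 0.0142, 0.0156 and 0.0171. The log2 fold changes of these 3 were -0.16, -0.14 and -0.16.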

How the data were processed

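RNA was sequenced from small intestinal organoids in 6 libraries, 3 with MMK-1 and 3 with vehicle, as 150-bp paired-end reads. The authors deposited FPKM values for each gene and library. The submitters' processing notes name HISAT2, HTSeq, R 3.2.0, DESeq2 and the mm10 build without stating their roles, and the annotation is not given in the sources used here. The members and the gene lists were chosen with earlier results of these data known.

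FPKM values are whole fragments divided by a gene length and a library total. Library totals, gene lengths and fragments were computed from this. The lengths so obtained came out whole, to a tolerance of 0.1, in 100% of genes above 0. The procedure searched for whole lengths, so this share was built in and is no check of the recovered fragments. On simulated data, 96.9% of 3849 genes were recovered exactly.

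Differences were tested with limma 3.58.1 in R 4.3.3 (limma-trend) on log2(FPKM + 1), that is, after a pseudocount of 1 was added, over genes whose mean FPKM reached 1, with no replicate block. A call needed an adjusted p not above 0.05, or, as a second rule, a change of 2-fold or more with an unadjusted p not above 0.05. The fits were tested on simulated data. All 9 members and, from each list of other transport genes, the 2 genes with the largest passing changes in each direction could be named by rule, and some genes of these lists are not reported here. Alternatives were upper-quartile scaling, TPM, no filter, a pseudocount of 0.1, a replicate block, leaving out each library, and limma-voom with TMM on the fragments. Other steps ran in Python 3.11.15 (pandas 2.3.3, numpy 2.4.6, matplotlib 3.10.9, scipy 1.17.1).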

Additional observations from a re-analysis of the deposited data

How the results depend on the processing

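Under 12 alternatives, the changes of Cftr, Slc12a2, Kcnn4, Kcne3, Kcnq1, Slc26a3, Slc26a6 and Slc9a2 kept their direction and an adjusted p of at most 0.05 in limma, and the largest adjusted p was 8e-04, for Slc26a3. Slc9a3 kept its direction and did not pass in 5 of them, those that left out a library other than MMK-1 replicate 3, and fewer libraries enter these fits. The counts of members, and those of other transport genes by adjusted p, stayed within 1.5 times their main value under every alternative. The 2-fold counts of the other transport genes were not run under the alternatives. Of 468 values of 39 single genes, 453 kept direction and side of the threshold, 12 no longer passed, 3 passed anew, and 0 reversed. The same replicate number did not mark libraries that deviate together, since the correlations of same-numbered libraries were 0.025, -0.04 and 0.028. With a replicate block in the fit, 6 members were higher and 3 lower, as without it, and Slc9a3 had an adjusted p of 0.032.

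Over all genes, the 2-fold calls were 358 up and 385 down. They were 676 and 486 with a pseudocount of 0.1, 558 and 423 with TPM, and 482 and 633 with limma-voom. By adjusted p alone, 5118 rose and 2606 fell, against 4395 and 3291 with upper-quartile scaling and 3725 and 3855 with limma-voom. The cause was not tested. Depth limits Kcnn4 and Kcne3 most, whose control libraries held 74 to 186 fragments.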
